A study of Homo sapiens with 2 samples.

Results

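FN1, TGFBI, KRT8 and NAPSA are used as identity genes of mesenchymal and of lung epithelial cells, and their transcript rows were followed in 95D, a human lung cancer cell line. The 4 names were selected on their deposited values, each being above 0 in both libraries of the series, and they are 4 of 9253 names with a value. That choice, and every difference between the libraries that went with it, is given below as description. The cells were wild type in both groups. They spent 24 h in complete medium and then 48 h in glutamine-free medium for 1 library and 48 h in glucose-free medium for the other, with dialyzed serum in both. The description of the glutamine-free sample points to a table column named for glucose deficiency. The headers of the 2 sample files name Gln and Glu deficiency, and each file was assigned by the sample recorded for it, so every direction below rests on that assignment. With 1 library per condition there is no replicate, no test and no p-value. The series' title speaks of RNA immunoprecipitated with ALKBH5, an m6A demethylase, but neither library is labelled as a pull-down or as input, so the values are read as RNA of these libraries only. In bulk RNA, fewer cells of a type and less RNA per cell cannot be told apart.

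Epithelial cells are held together by keratin filaments and junctions, and simple epithelia such as that of the lung build their filaments from KRT8 paired with KRT18. NAPSA, napsin A, is an aspartic protease of type II pneumocytes that takes part in maturing surfactant protein B, and pathologists stain it in lung adenocarcinoma. FN1, fibronectin, and TGFBI, a matrix protein induced by TGF-beta, are secreted into the extracellular matrix and bound by integrins, and both are often raised where carcinoma cells take on mesenchymal features.

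Each file listed transcripts one per row under a gene name, without transcript identifiers, and a row either carried a value or a mark for none. The 4 names had 29 rows, of which 23 carried a value. FN1 had 12 of 13 rows with a value, TGFBI 6 of 6, KRT8 3 of 5 and NAPSA 2 of 5. All 23 rows were above 0 in the glutamine-free library and 6 of the 23 in the glucose-free library. Values are on the authors' scale, which is not divided by transcript length, so levels are compared between libraries and not between genes. Low values climbed in equal steps, which let whole reads be recovered. They came to 1442570 in the glutamine-free library and 42827 in the glucose-free library. All intervals below are 95% intervals from these reads. They are exact, except that those of a factor between 2 ratios are normal on the log scale. Such intervals hold counting error alone, as no molecular identifiers are described and reads need not be independent.

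In the RefSeq table of GRCh38.p14, FN1 lies at chr2:215360865-215436068 on the minus strand with 18 transcripts and TGFBI at chr5:136028988-136063818 on the plus strand with 1. KRT8 lies at chr12:52897191-52949860 and NAPSA at chr19:50358477-50369302, both on the minus strand and with 4 transcripts each. KRT18, the partner keratin, overlaps the KRT8 locus by 1006 bases, and ATIC, a purine synthesis enzyme, overlaps that of FN1 by 7728 bases. KRT18 stood at 75.1 in the glutamine-free library and was listed at 0 in the glucose-free library, and ATIC at 58.4 and a listed 0. RefSeq also holds 52 numbered KRT8 pseudogenes, none of which was a name in the tables used, and LOC105372437, a long non-coding RNA, spans the whole NAPSA locus. The strand setting of the counting is not given, so reads of overlapping genes or near-identical copies may be counted here. Which RefSeq transcript a row stands for is not given.

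The bases just upstream of the annotated starts are shown because the rows do not tell which start their RNA came from, and NAPSA has more than 1. Each line holds the 200 bases before a RefSeq start of GRCh38.p14, 5′ to 3′ on the gene's strand. They are chr2:215436069-215436268 for FN1, chr5:136028788-136028987 for TGFBI, chr12:52926470-52926669 for KRT8, and chr19:50369303-50369502 and chr19:50365640-50365839 for the 2 NAPSA starts. The KRT8 start lies inside the annotated span of the gene, and the bases before the outer end of that span were not examined. Capitals mark matches, on either strand, to TATAA, the core of the TATA box. They also mark CCAAT, the box bound by NF-Y. GGGCGG, the GC box bound by Sp1, is marked too. Last comes TGACGTCA, the cyclic AMP response element.
FN1: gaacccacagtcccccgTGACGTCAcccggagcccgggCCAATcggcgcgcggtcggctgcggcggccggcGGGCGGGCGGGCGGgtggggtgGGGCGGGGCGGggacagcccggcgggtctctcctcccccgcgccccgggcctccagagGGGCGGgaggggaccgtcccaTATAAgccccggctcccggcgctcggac
TGFBI: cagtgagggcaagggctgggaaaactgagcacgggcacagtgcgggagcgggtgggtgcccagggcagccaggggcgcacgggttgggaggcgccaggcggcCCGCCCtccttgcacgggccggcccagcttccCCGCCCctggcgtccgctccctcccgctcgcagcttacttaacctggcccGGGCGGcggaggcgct
KRT8: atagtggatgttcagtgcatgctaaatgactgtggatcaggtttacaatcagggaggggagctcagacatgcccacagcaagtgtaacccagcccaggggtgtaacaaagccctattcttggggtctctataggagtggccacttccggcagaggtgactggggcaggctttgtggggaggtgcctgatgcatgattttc
NAPSA, outer start: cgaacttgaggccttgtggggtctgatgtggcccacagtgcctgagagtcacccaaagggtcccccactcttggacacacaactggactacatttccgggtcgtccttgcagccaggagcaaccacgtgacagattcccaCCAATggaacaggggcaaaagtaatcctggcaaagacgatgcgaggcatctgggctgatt
NAPSA, inner start: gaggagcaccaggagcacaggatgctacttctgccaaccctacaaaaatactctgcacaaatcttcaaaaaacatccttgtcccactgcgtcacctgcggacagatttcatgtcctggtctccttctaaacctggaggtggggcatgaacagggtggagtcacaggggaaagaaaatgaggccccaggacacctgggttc
FN1 held 6 GC boxes, several of them overlapping, and 1 each of the TATA core, the NF-Y box and the cyclic AMP element, beginning 28, 162 and 183 bases before the start. TGFBI held 3 GC boxes, and the inner KRT8 start examined and the inner NAPSA start held none of the 4 motifs. The outer NAPSA start held the NF-Y box, 60 bases before the start, and the TATA core, 227 bases before it and so outside the printed stretch. Over 35116 RefSeq windows of 250 upstream bases, 18.9% held the TATA core, 32% the NF-Y box, 42.6% the GC box and 1.65% the cyclic AMP element. The printed bases were 81% G or C for FN1, 75% for TGFBI, 53% for KRT8, and 56% and 52% for NAPSA, against a median of 59% over all windows. A match is a run of letters and was not tested as a site.

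FN1, which cells assemble into fibrils around themselves, summed to 963 in the glutamine-free library and 344 in the glucose-free library. As deposited, the ratio was 2.80 (2.46 to 3.21), and it rested on 1218 and 272 reads. With each library rescaled to 1000000 its direction turned, at a log2 ratio of -2.91. The row ratios below are as deposited too. The first row, ordered by value in the glutamine-free library, stood at 484 in that library and 334 in the glucose-free library. The second stood at 179 and 10.1, which is 226 and 8 reads. The other 10 rows ranged from 1.56 to 101.2 in the glutamine-free library and were all listed at 0 in the glucose-free library. So the rows of FN1 seen in the glucose-free library were those with the highest values in the other library. The leading row held 50.2% of FN1 reads (47.4 to 53.1%) in the glutamine-free library and 97.1% (94.3 to 98.7%) in the glucose-free library. Taken alone, that row had a ratio of 1.45 (1.25 to 1.68), and the second row one of 17.6 (8.82 to 41.4).

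TGFBI, whose product links collagen and integrins, summed to 331 in the glutamine-free library and 138 in the glucose-free library, a ratio of 2.40 (1.94 to 2.998). This ratio is as deposited and rested on 419 and 109 reads. With each library rescaled to 1000000 its direction turned, at a log2 ratio of -3.13. Its first row stood at 257 in the glutamine-free library and carried the whole 138 of the glucose-free library, a ratio of 1.87 (1.498 to 2.34). The other 5 rows stood at 25.3, 22.9, 13.4, 11.1 and 1.56 in the glutamine-free library and at a listed 0 in the other. As with FN1, the row seen in both libraries was the highest in the glutamine-free one. It held 77.6% of TGFBI reads there (73.3 to 81.5%) and 100% (96.7 to 100%) in the glucose-free library.

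KRT8, the type II keratin of simple epithelia, summed to 143 in the glutamine-free library and 199.8 in the glucose-free library, a ratio of 0.716 (0.576 to 0.893). It rested on 181 and 158 reads. On the deposited scale its first row was nearly equal in both, at 98.9 in the glutamine-free library and 99.9 in the glucose-free library, a ratio of 0.990 (0.741 to 1.33), which is -0.01 on the log2 scale as deposited and -4.41 with each library rescaled to 1000000. The second stood at 37.2 and a listed 0. The third stood at 7.10 and 99.9, a ratio of 0.0711 (0.0314 to 0.142). In the glucose-free library the first row and the third thus had the same value, 79 reads each, where the glutamine-free library gave them 125 and 9 reads. The first row held 13.9 times the reads of the third (7.09 to 31.1) in the glutamine-free library and 1 times (0.723 to 1.38) in the glucose-free library. Of 49 names with several rows above 0 in the glucose-free library, 3 had rows of equal value over 10 reads: KRT8, DNAH14 and XLOC_036509. Whether the 2 KRT8 rows count the same reads was not tested. With the third row left out, KRT8 was higher in the glutamine-free library, at a log2 ratio of 0.44, against -0.48 with all rows.

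NAPSA was the furthest apart of the 4. It summed to 18.9 in the glutamine-free library and 161 in the glucose-free library, a ratio of 0.118 (0.0731 to 0.184), on 24 and 127 reads. Its first row stood at 15.0 in the glutamine-free library and was listed at 0 in the glucose-free library. Its second stood at 3.94 and 161, or 5 and 127 reads, a ratio of 0.0245 (0.00786 to 0.0590). The row that carried NAPSA in the glucose-free library was therefore the lower of the pair in the glutamine-free library. There it held 20.8% of NAPSA reads (7.13 to 42.2%), against 100% (97.1 to 100%) in the glucose-free library. Such a mismatch was common among the names that could be compared in this way. Of 276 names above 0 in both libraries with more than 1 row, 107, or 38.8%, had the same leading row in both, ties included. FN1, TGFBI and KRT8, by its tie, are among these and NAPSA is not.

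**Figure D1:**
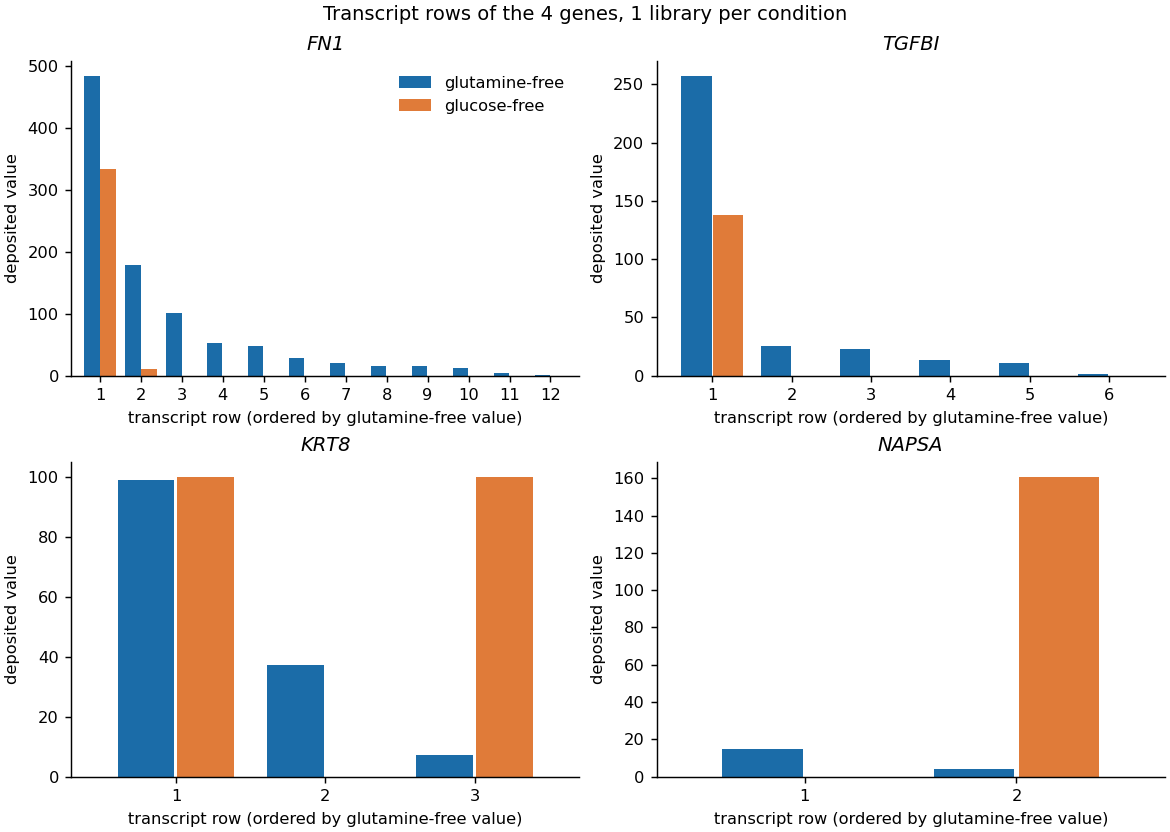
Deposited values of the 23 transcript rows of FN1, TGFBI, KRT8 and NAPSA, 1 panel per gene, with rows along the x axis in order of their glutamine-free value and bars for the glutamine-free (left) and glucose-free (right) library. The leading row was shared for FN1 and TGFBI, the 2 glucose-free KRT8 bars were equal at 99.9, and the NAPSA bars stood on different rows, at 15.0 and 161.

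On the log2 scale with 1 added to each value, the glutamine-free minus the glucose-free library gave 1.48 for FN1, 1.26 for TGFBI, -0.48 for KRT8 and -3.02 for NAPSA. FN1 and TGFBI, 2 of the 4, differed at least 2-fold with the higher value in the glutamine-free library, where 97.4% of all names were, and 42.2% of the 351 names above 0 in both libraries. NAPSA, 1 of the 4, was at least 2-fold higher in the glucose-free library, where 1.42% of all names were, and 25.4% of those 351. Since the 4 names were picked with these values in view, nothing is read from the counts. The direction of FN1 and TGFBI turned with the scale: with each library set to a sum of 1000000 the 4 values were -2.91, -3.13, -4.87 and -7.40. The median of the 351 names moved likewise, from 0.61 as deposited to -3.77. KRT8 and NAPSA were lower in the glutamine-free library under both scales.

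Ratios between genes inside a library are not altered by its scale. Transcript length would cancel between the libraries only if the same rows carried the reads in both, which held for few of these rows: NAPSA had 19 of 24 reads on its first row in the glutamine-free library and 127 of 127 on its second in the glucose-free library. The ratios therefore describe summed reads and not transcript numbers. The 6 pairs were compared. FN1 had 2.91 reads per TGFBI read (2.60 to 3.26) in the glutamine-free library and 2.50 (1.99 to 3.15) in the glucose-free library. These 2 matrix genes differed between the libraries by a factor of 1.16 (0.909 to 1.49), an interval that includes 1, and with the largest row of each name the ratios were 1.88 and 2.42. FN1 had 6.73 reads per KRT8 read (5.75 to 7.91) in the glutamine-free library and 1.72 (1.41 to 2.11) in the glucose-free library, 3.91 times apart (3.04 to 5.02). TGFBI had 2.31 (1.94 to 2.77) and 0.690 (0.535 to 0.886) per KRT8 read, 3.36 times apart (2.49 to 4.53). In these 2 libraries the matrix genes thus had more reads per KRT8 read in the glutamine-free one. The counting intervals treat the equal KRT8 rows as separate reads, and they say nothing of the spread between cultures.

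NAPSA gave the widest gaps. FN1 had 50.8 reads per NAPSA read (33.9 to 79.5) in the glutamine-free library and 2.14 (1.73 to 2.67) in the glucose-free library, 23.7 times apart (15.0 to 37.4). TGFBI had 17.5 (11.6 to 27.6) and 0.858 (0.658 to 1.12), 20.3 times apart (12.5 to 33.0). KRT8 had 7.54 (4.91 to 12.1) and 1.24 (0.979 to 1.58), 6.06 times apart (3.73 to 9.85). The NAPSA gaps set reads of different rows against each other. The equal KRT8 rows weigh on the keratin ratios. Without the third KRT8 row the FN1 to KRT8 gap was 2.06 (1.53 to 2.77) and without the first 6.32 (4.38 to 9.12). The TGFBI to KRT8 gap was 1.77 (1.26 to 2.48) and 5.42 (3.63 to 8.11) in these settings, and that of KRT8 to NAPSA 11.5 (6.91 to 19.2) and 3.75 (2.15 to 6.53).

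**Figure D2:**
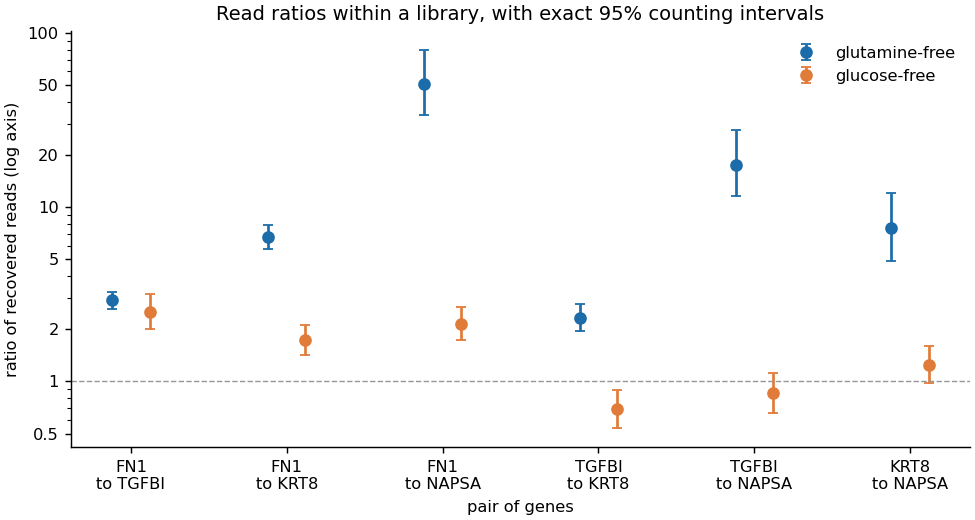
Recovered reads of the first gene per read of the second, on a log axis, for the 6 pairs of FN1, TGFBI, KRT8 and NAPSA, with the glutamine-free library left of the glucose-free library and bars for exact 95% counting intervals. The intervals overlap for FN1 to TGFBI, at 2.91 and 2.50, and are apart for the other 5 pairs.

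The glucose-free values of the 4 names lay close together, between 138 and 344, while their glutamine-free values ran from 18.9 to 963. This was so for the names above 0 in both libraries at large. Their quartiles were 39.9 and 347 in the glutamine-free library, 8.70-fold apart, and 56.9 and 147 in the glucose-free library, 2.58-fold apart. Of these names 91 had glucose-free values between those of TGFBI and FN1, and their glutamine-free values ran from 0.772 to 3131 with a median of 243. NAPSA was among the 9 lowest of them in the glutamine-free library. Across the 351 names the libraries had a Spearman rho of 0.34 and a Pearson r of 0.35 on the log2 scale, a description over names that share the same 2 libraries.

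**Figure D3:**
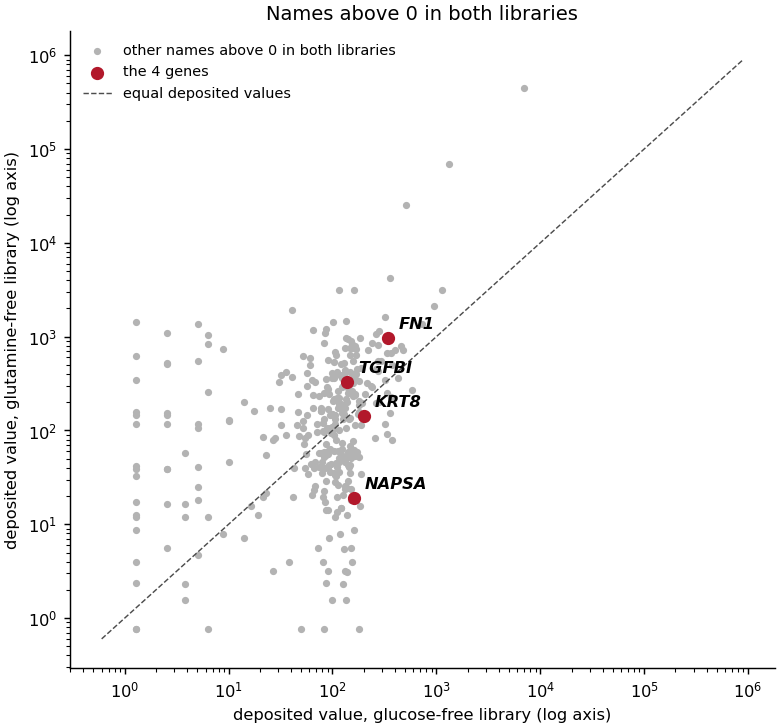
Each point is 1 of the 351 names above 0 in both libraries, with its deposited value in the glutamine-free library (y) and in the glucose-free library (x) on log axes, and the dashed line marks equal values. FN1 and TGFBI lie above the line, KRT8 just below and NAPSA far below, inside a narrow vertical band of glucose-free values.

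Reads per row show the same feature. Of rows above 0 in the glucose-free library, 53.8% had 50 to 150 reads and 19.8% had 1 to 10, against 14.8% and 34.6% in the glutamine-free library. The main rows of KRT8, TGFBI and NAPSA, at 79, 109 and 127 reads, fell in that range, while the 2 FN1 rows, at 264 and 8 reads, did not. The part of this spread in the ratios above was not tested. Against the 375 rows above 0 in both libraries, whose log2 value ratios had quartiles of -2.29 and 1.56 and a median of -0.42, the first rows of FN1, TGFBI and KRT8, at 0.54, 0.90 and -0.01, lay inside the quartiles. Rescaling each library to 1000000 shifts every row ratio by -4.40, and so leaves their order as it is. The NAPSA row at -5.35, the third KRT8 row at -3.81 and the second FN1 row at 4.14 lay outside them.

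**Figure D4:**
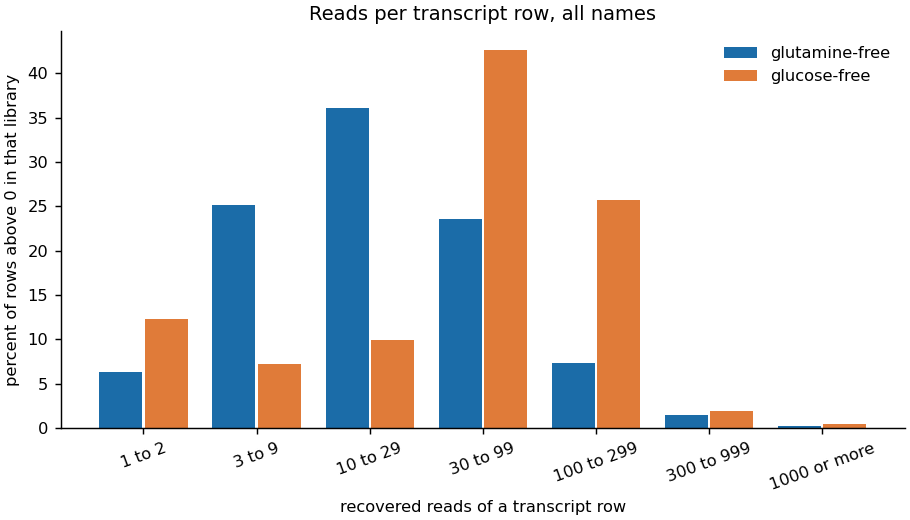
Percent of the transcript rows above 0 in each library (y) by their number of recovered reads (x), over all names, with glutamine-free bars left of glucose-free bars. Rows of 30 to 99 reads were the most frequent class in the glucose-free library, at 42.6%, and rows of 10 to 29 reads in the glutamine-free library, at 36.1%.

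Other genes of the same identities, like most names, were seen almost wholly in the glutamine-free library. Of 44 epithelial genes 18 were measured, all above 0 there and KRT8 alone above 0 in the glucose-free library. By comparison 4.25% of all names were above 0 in the glucose-free library. In the glutamine-free library 99.5% of all rows with a value were above 0, so a measured gene is nearly always above 0 there. The glucose-free library held 42827 recovered reads, against 1442570 in the glutamine-free library. A listed 0 in the glucose-free library is therefore not read as absence, in this list or in those below. The part of depth in these zeros was not tested. KRT18 stood at 75.1 and KRT19, another simple keratin, at 42.6 in the glutamine-free library, and KRT7 at 9.47. The catenins, which tie cadherins to actin, stood at 430.2 for CTNNA1, 315 for CTNNB1 and 185 for CTNND1, and PKP3, a desmosome plaque protein, at 44.3. Each of them had a listed 0 in the glucose-free library. EPCAM and CDH1, surface adhesion proteins that define epithelium, had rows without a value. Without KRT8, which was selected for being above 0 in both libraries, 0 of 17 were above 0 in the glucose-free library, a share near that of all names.

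Of 34 lung lineage genes 6 were measured. NAPSA, selected for being above 0 in both libraries, was the 1 above 0 in the glucose-free library. Without it 0 of 5 were, beside 4.25% of all names. In the glutamine-free library MUC5B, an airway mucin, stood at 53.0, LPCAT1, which makes surfactant phospholipid, at 19.7 and FOXP1 at 15.8. HOPX stood at 10.3 and ETV5, a transcription factor of type II cells, at 9.46. The surfactant proteins SFTPA1, SFTPB and SFTPC had rows without a value, and NKX2-1 and SCGB1A1 were not analysed here. The lung label therefore rests on NAPSA and few companions.

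Of 48 mesenchymal and matrix genes 16 were measured, and 3 were above 0 in the glucose-free library: FN1, TGFBI and CDH11, a mesenchymal cadherin. FN1 and TGFBI were selected for being above 0 in both libraries. Without them 1 of 14 was above 0 in the glucose-free library, beside 4.25% of all names. CDH11 stood at 1448 in the glutamine-free library and at 1.29, which is 1 read, in the glucose-free library. LAMB1, a laminin chain of basement membranes, stood at 965 in the glutamine-free library, ZEB2, a repressor of epithelial genes, at 259 and COL6A1 at 133. COL5A2 stood at 82.2, VIM, the mesenchymal filament protein, at 75.9, P4HA2, which hydroxylates collagen, at 22.9 and ZEB1 at 18.9. All 7, from LAMB1 to ZEB1, had a listed 0 in the glucose-free library. CDH2 had rows without a value.

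Among 23 integrins and adhesion proteins, the receptors of FN1 and TGFBI and their anchors, 11 were measured. Of these 2 were above 0 in the glucose-free library, beside 4.25% of all names. ITGAV, the alpha chain that reads the RGD motif of fibronectin, stood at 243 in the glutamine-free library and 166 in the glucose-free library. ITGB1, the beta chain shared by many matrix receptors, stood at 5.52 and 149, which is 7 and 118 reads. Their log2 ratios were 0.55 and -4.53, so chains that can pair with each other lay on opposite sides as deposited; rescaled to 1000000 they were -3.84 and -8.88. ITGA3 stood at 146, ITGA5, the classical fibronectin receptor chain, at 144 and ITGA1 at 48.2 in the glutamine-free library. FERMT2 stood at 47.4, ITGB5 at 19.0 and ITGA6 at 15.8, and these 6 were listed at 0 in the glucose-free library.

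TGF-beta signalling, which induces both matrix genes, had 6 of 28 genes measured. Of these 0 were above 0 in the glucose-free library, beside 4.25% of all names. In the glutamine-free library LTBP3, which stores the ligand, stood at 84.6, SMAD3, a signal transducer, at 75.9 and TGFBR1, a receptor, at 58.5. The target CCN1 stood at 32.4, ID2 at 22.1 and SMAD4, the shared SMAD, at 20.5. As deposited, 17 of 18 epithelial, 5 of 6 lung, 16 of 16 mesenchymal, 9 of 11 integrin and 6 of 6 TGF-beta genes were higher by 2-fold or more in the glutamine-free library, beside the 97.4% of all names. The median log2 ratios were 4.04, 3.78, 4.35, 4.07 and 5.48 in that order, beside 4.32 over all names. Most of these genes were listed at 0 in the glucose-free library, so the medians carry the level in the glutamine-free library and the added 1.

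**Figure D5:**
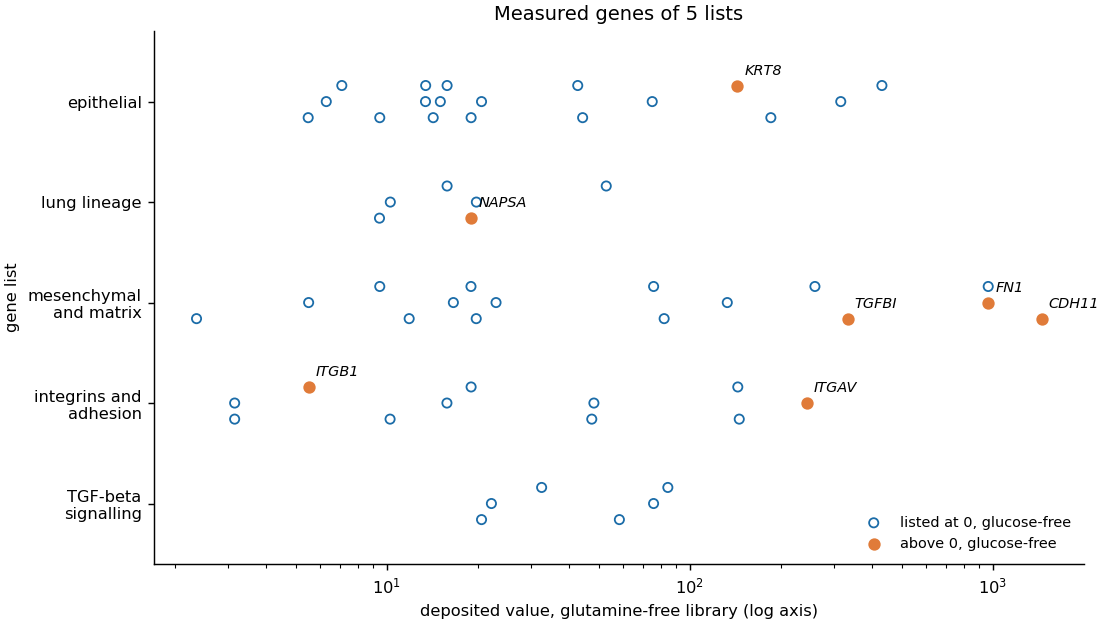
Measured genes of 5 lists (y) by their deposited value in the glutamine-free library (x, log axis), filled where the gene was also above 0 in the glucose-free library and open where it was listed at 0 there. The filled points are KRT8, NAPSA, FN1, TGFBI, CDH11, ITGAV and ITGB1, and no TGF-beta signalling gene is filled.

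Few markers of other cells had a value. None of 14 blood and 9 endothelial genes had one, among them PTPRC, VWF and CD3E. Of these genes 11 blood and 3 endothelial ones had rows without a value, and the others were not analysed here. Over all names 18663 of 91835 rows carried a value, so a missing value is not read as absence of these cells. Of 8 fibroblast genes COL3A1 alone was measured, at 2.35 in the glutamine-free library and a listed 0 in the glucose-free library. COL1A1 and PDGFRA had rows without a value.

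By likeness, the distance between 2 names in log2(value + 1) over the 2 libraries, the names nearest to FN1 were ADAR at 0.38, TFRC at 0.41 and HSP90B1 at 0.42. Those nearest to TGFBI were TMEM147-AS1 at 0.08, NONO at 0.12 and ANAPC5 at 0.15. Those nearest to KRT8 were CANX at 0.19, ZNF195 at 0.20 and ASNS at 0.34, and those nearest to NAPSA were GINS1 at 0.10, DNAJC2 at 0.31 and FAM98A at 0.32. GINS1, a DNA replication factor, stood at 18.1 in the glutamine-free library and 152 in the glucose-free library, close to NAPSA in both. With 2 libraries many names lie near any point.

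As shares of all recovered reads, FN1 took 0.0844% (0.0798 to 0.0893%) in the glutamine-free library and 0.635% (0.562 to 0.715%) in the glucose-free library. TGFBI took 0.0290% (0.0263 to 0.0320%) and 0.255% (0.209 to 0.307%), and KRT8 0.0125% (0.0108 to 0.0145%) and 0.369% (0.314 to 0.431%). NAPSA took 0.00166% (0.00107 to 0.00248%) and 0.297% (0.247 to 0.353%). All 4 shares were higher in the glucose-free library, where 393 names shared the reads. The 4 names were selected for having reads in both libraries, and most such names went the same way. With the libraries set to equal sums, the 351 names common to both had a median log2 ratio of -3.77, glutamine-free over glucose-free. Without the most abundant name, XLOC_220679, in the denominator, the shares of FN1 were 0.138% and 0.730%. Those of NAPSA were then 0.00272% and 0.341%. Over the reads of the 351 common names alone the shares of FN1 were 0.152% and 0.681% and those of NAPSA 0.00299% and 0.318%.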

How the data were processed

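RNA of 95D cells was sequenced as 1 library per nutrient condition after ribosomal RNA depletion, per the labels' protocols. The submitters' processing notes name HISAT2 2.0.5, StringTie and the build hg38 without their roles, while how reads were counted and scaled is not given in the sources used here. The deposited values carry no stated unit and were treated as a signal proportional to reads. Values under 1e-09 were set to 0, and rows marked as without a value were left out. The low values followed steps of 0.791 in the glutamine-free and 1.26 in the glucose-free library, with offsets of -0.018 and 0.022, and 100% of 18536 and 472 values up to 1000 reads came out whole within 0.1 of a read. Of 91835 rows 18663 carried a value, and rows were summed per name. A name was kept with at least 1 in one library. Log2 ratios had 1 added to each value. Intervals of reads, shares and ratios were exact 95% Poisson or binomial intervals, and those of a ratio of ratios were normal on the log scale, in Python 3.11.15 with numpy 2.4.6, pandas 2.3.3 and scipy 1.17.1. The design had foreseen no test, since each condition has 1 library. The recovery of reads and the 2-fold calls were checked on simulated libraries of like depth, which these 2 libraries are not. The calls were scored only on names with enough reads and with planted changes well over 2-fold. The check therefore does not cover calls on names with few reads. Intervals, shares and ratios between genes were not checked in this way. Promoters came from RefSeq on GRCh38.p14, where all 4 genes matched by symbol. The members and the 10 gene lists were chosen with earlier results of these data known. Named list genes were all measured members above 0 in the glucose-free library and up to 6 further ones with the highest glutamine-free value. Markers of cell types named beside them, ZEB1, KRT7 and COL3A1 among them, were added for the check of the labels. Alternatives were other scales, a pseudocount of 0.1, the largest row of a name, a minimum of 5 or none, and thresholds of 1.5-fold and 4-fold. Leaving out an equal KRT8 row was added after the data were seen.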

Additional observations from a re-analysis of the deposited data

How the results depend on the processing

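No paired analysis was possible because each condition has 1 library, and no replicate could be left out. With each library rescaled to 1000000, the log2 ratios became -2.91 for FN1 and -3.13 for TGFBI, which turned their direction, and -4.87 for KRT8 and -7.40 for NAPSA. Centred on names above 0 in both libraries they were 0.88, 0.65 and -1.09 for FN1, TGFBI and KRT8, and with the largest row of a name 0.54, 0.89 and -0.015. Without the third KRT8 row, its lower one in the glutamine-free library, the KRT8 log2 ratio turned to 0.44, and without the first it was -1.16. With the largest rows, the read ratios in the glutamine-free library were 1.88 for FN1 to TGFBI, 4.90 for FN1 to KRT8 and 32.2 for FN1 to NAPSA. In the glucose-free library they were 3.34 for FN1 to KRT8, 1.38 for TGFBI to KRT8 and 0.622 for KRT8 to NAPSA, and leaving out either equal KRT8 row there gave 3.44, 1.38 and 0.622. In the glutamine-free library, leaving out the first KRT8 row gave 21.8 for FN1 to KRT8, 7.48 for TGFBI to KRT8 and 2.33 for KRT8 to NAPSA. Names at least 2-fold higher in the glucose-free library numbered 131 as deposited, 347 after rescaling and 85 at a 4-fold threshold. These shifts follow from which rows and which scale enter each value. A pseudocount of 0.1, a minimum of 5 and no minimum moved none of the 4 log2 ratios beyond counting error. The minimums could not move them, since all 4 names lie above them. The numbers of list members above 0 in the glucose-free library were the same under every alternative run. That outcome carries no support, as no scale, pseudocount or choice of row changes whether a name is above 0. The 24 NAPSA reads of the glutamine-free library limit every ratio that holds NAPSA.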

Other observations

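Beside NAPSA, itself an aspartic protease, 8 other proteases of a 15-gene list of aspartic and lysosomal proteases were measured. CTSD, the main lysosomal aspartic protease, stood at 485 in the glutamine-free library, CTSA at 347, CTSL at 233 and CTSC at 214. CTSZ stood at 187 and BACE1, which cleaves the amyloid precursor, at 74.3. All 6 were listed at 0 in the glucose-free library, where NAPSA was the 1 protease of the list above 0. NAPSA was selected for being above 0 in both libraries. Without it 0 of 8 were above 0 in the glucose-free library, beside 4.25% of all names. The median log2 ratio of the 9 measured proteases was 7.56, beside 4.32 over all names. As all but NAPSA were listed at 0 in the glucose-free library, this median carries the level in the glutamine-free library and the added 1.

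Of 10 neuroendocrine genes 2 were measured, UCHL1, a deubiquitinase abundant in neurons, at 3192 and ENO2, neuron-specific enolase, at 7.89 in the glutamine-free library, against a listed 0 for each in the glucose-free library. SYP and NCAM1, which define neuroendocrine cells, had rows without a value.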
